A study of Drosophila melanogaster with 12 samples.

Results

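Aminoacyl tRNA synthetase genes were followed through the first 72 hours of wing disc regeneration in Drosophila melanogaster. The genes were chosen by name alone: a current symbol made of an amino acid abbreviation and RS, with -m added where the enzyme is mitochondrial. The rule used no measured value. It found 33 genes in the gene table, of which 29 had a probe that names a single gene here, out of 12058 genes measured. Of the 29 genes, 16 encode cytosolic enzymes and 13 mitochondrial ones, as their symbols give it. The symbol does not tell whether a gene without -m also serves mitochondria, and no mitochondrial counterpart by name was found for GlnRS, GlyRS, HisRS, LysRS and ThrRS. AspRS, MetRS, AlaRS-m and SerRS-m fit the rule and were not measured.

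A synthetase joins an amino acid to its tRNAs at the cost of ATP, and the charged tRNA then brings the amino acid to the ribosome. Translation in the cytosol and translation inside mitochondria use separate sets of tRNAs. The enzymes for both are encoded in the nucleus, in most cases by separate genes for the same amino acid. In GluProRS a glutamyl and a prolyl enzyme are fused in a single polypeptide. Growing imaginal disc cells depend on cytosolic charging for bulk protein synthesis, whereas the mitochondrial enzymes serve the few proteins that the mitochondrial genome encodes.

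Wing discs came from larvae of the third instar, of an isogenic DrosDel line (w118iso; 2iso; 3iso in the labels, where the study's methods write w1118 for the first part). Cut discs (C) lacked a sector of the posterior compartment, and intact discs (NC) were left whole. Both kinds were implanted into Canton S females that had just eclosed, at 25°C. Two-colour arrays set cut discs at 24 hours against cut discs at 0 hours (C0→C24), cut discs at 72 hours against cut discs at 24 hours (C24→C72), and intact discs at 24 hours against intact discs at 0 hours (NC0→NC24). Each comparison held 4 arrays, from 2 biological replicates with the dyes swapped in each. How many discs stand behind a sample is not given in the sources used here. No genotype differed between the groups, and all the later samples had been in an adult host. No array placed cut beside intact discs, and the difference between them was taken between the changes of C0→C24 and NC0→NC24. The 24-hour cut RNA entered both C0→C24 and C24→C72, with opposite sign, so values in these 2 comparisons are not independent.

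Each value is a log2 ratio, with the later time on top, and gives no level of any gene. Their direction was inferred: dye-swapped arrays correlated positively in every pair, and the measured genes for which the study's text states a side lay on that side in 18 of 18 cases in C0→C24 and 21 of 22 in C24→C72, with regucalcin, at -0.33, as the exception. Agreement was lower in the late period. Over all genes the 2 replicate means correlated with r = 0.896 (C0→C24), 0.533 (C24→C72) and 0.85 (NC0→NC24), and dye-swapped arrays of C24→C72 with r = 0.438 and 0.2. A gene was called where the adjusted p of limma was under 0.05 and the change at least 1.5-fold, which is 0.585 on the log2 scale.

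In C0→C24, transcripts of 6 of the 16 cytosolic synthetase genes fell by 1.5-fold or more: ValRS, CysRS, SerRS, LeuRS, GlyRS and AlaRS. None of the 16 was called higher, and none of the 13 mitochondrial genes was called in either direction. Of all 29 synthetase genes 20.7% were called lower, against 4.94% of all genes, and 0 were called higher, against 6.12% of all genes. At a 2-fold threshold ValRS alone of the synthetase genes was called in C0→C24. By adjusted p alone, 9 of the 29 genes changed (31.0%, 1 higher and 8 lower), against 26.7% of all genes. This pooled share was near that of all genes but joined 2 unlike classes. All 9 were cytosolic, 56.2% of that class, while 0 of the mitochondrial genes changed by this measure. The median log2 ratio was -0.33 over the cytosolic genes and -0.08 over the mitochondrial ones, against -0.01 over all genes. Fewer cells that express a gene and less of its RNA in each cell cannot be told apart in such samples.

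**Figure D1:**
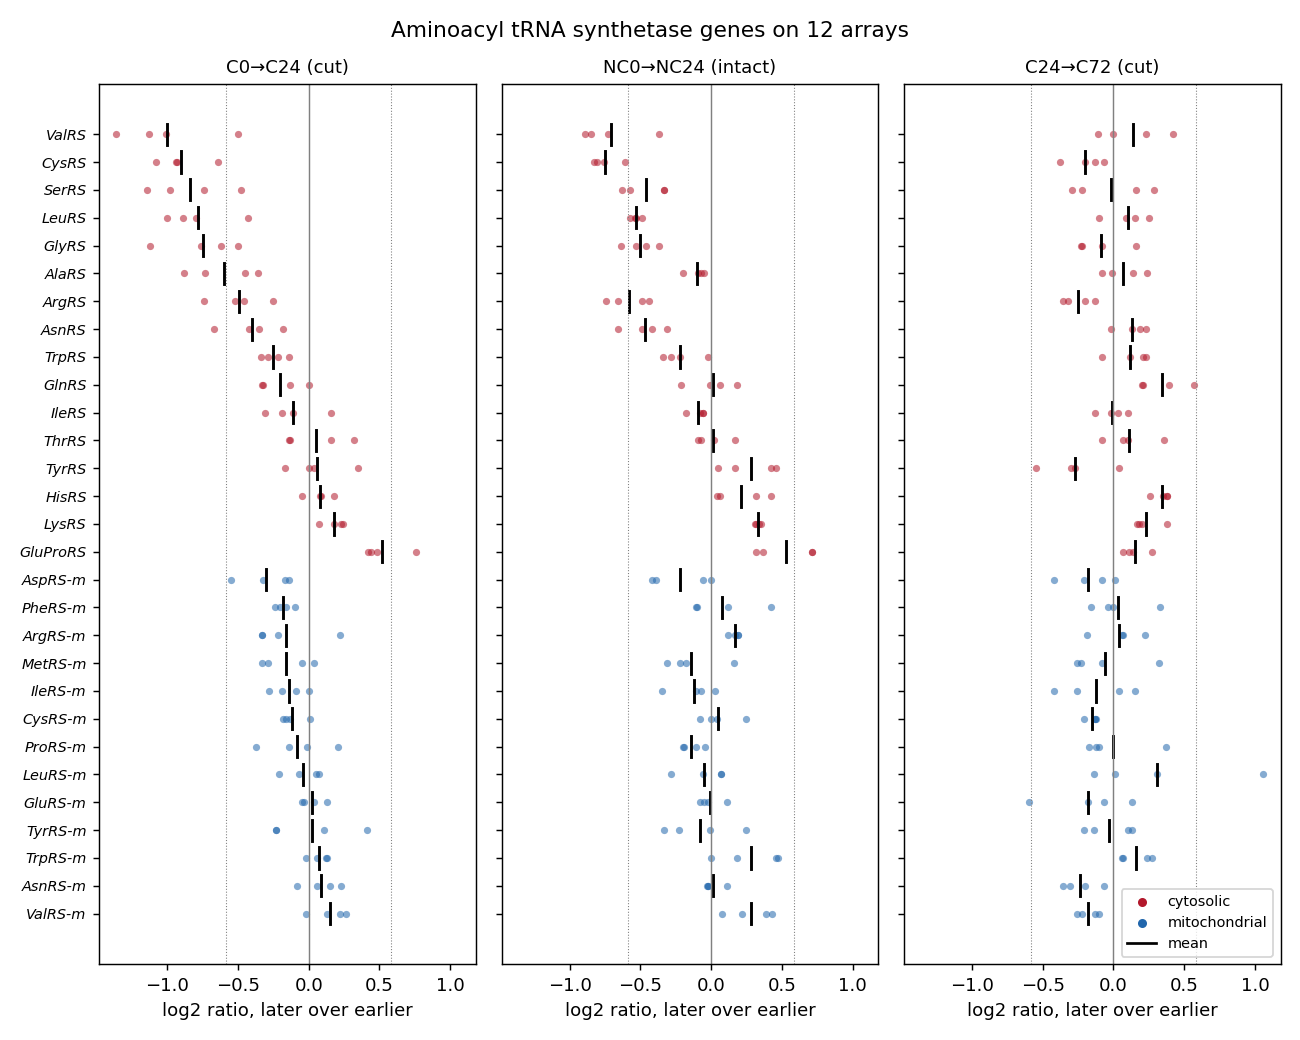
Log2 ratio (later over earlier time, x axis) of each of the 29 synthetase genes (y axis) in C0→C24, NC0→NC24 and C24→C72. Points are the 4 arrays of a comparison, black bars their mean, and dotted lines mark 1.5-fold. Cytosolic genes spread between -1.0 and 0.52 in C0→C24, while the mitochondrial genes below them lie between -0.30 and 0.15.

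ValRS, the valyl enzyme, fell most. Its log2 ratios in C0→C24 were -1.01 and -1.13 in replicate 1 and -1.36 and -0.50 in replicate 2, against -0.85, -0.73, -0.89 and -0.37 in NC0→NC24. All 8 arrays were below 0, and the 2 sets overlapped. The fitted change was -1.0 (SE 0.11, adjusted p = 0.000197, limma) in cut discs, a later over earlier ratio of 0.5. In intact discs it was -0.71 (SE 0.11, adjusted p = 0.00163), a ratio of 0.611. On normalized arrays such ratios are relative to the other genes and give no absolute loss of transcript. The call in intact discs was lost without NC0→NC24 replicate 1 (-0.63, adjusted p = 0.053).

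CysRS, which charges tRNA with cysteine, gave -0.93, -1.08, -0.94 and -0.64 in C0→C24, against -0.81, -0.83, -0.76 and -0.61 in NC0→NC24. Cut and intact discs overlapped again. The change was -0.90 (SE 0.09, adjusted p = 0.000152, limma) in cut discs and -0.75 (SE 0.09, adjusted p = 0.000556) in intact discs. CysRS and ValRS were the synthetase genes called in NC0→NC24, where 6.9% of the 29 genes were called lower against 3.85% of all genes, and 0 were called higher against 5.14%. By adjusted p alone, 9 of the 29 genes changed in intact discs (31.0%), against 22.3% of all genes. These were again 56.2% of the cytosolic genes and 0 of the mitochondrial ones.

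SerRS, the seryl enzyme, gave -0.98, -0.74, -1.14 and -0.48 in C0→C24, against -0.57, -0.33, -0.63 and -0.33 in NC0→NC24. The fall was -0.84 (SE 0.08, adjusted p = 0.000103, limma) in cut discs and -0.46 (SE 0.08, adjusted p = 0.00282) in intact discs, where it stayed under the fold threshold. LeuRS charges leucine tRNAs and in mammalian cells is also reported to sense leucine for the TOR pathway. It gave -0.80, -1.0, -0.89 and -0.43 in C0→C24, against -0.54, -0.57, -0.49 and -0.53 in NC0→NC24. The array of replicate 2 in dye order B lay above the intact values, and the other cut arrays below them.

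GlyRS, the glycyl enzyme, gave -0.62, -1.12, -0.76 and -0.50 in C0→C24, against -0.37, -0.53, -0.46 and -0.64 in NC0→NC24, with overlap. The fitted changes of LeuRS and GlyRS in cut discs were -0.78 (SE 0.09, adjusted p = 0.000388, limma) and -0.75 (SE 0.09, adjusted p = 0.000397). In intact discs they were -0.53 and -0.50, with adjusted p values of 0.00375 and 0.00433, both under 1.5-fold.

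AlaRS, the alanyl enzyme, was called in cut discs and stayed near 0 in intact discs. Its log2 ratios were -0.36, -0.88, -0.73 and -0.45 in C0→C24, against -0.20, -0.07, -0.09 and -0.05 in NC0→NC24, and the 4 cut arrays lay below all 4 intact ones. The change was -0.60 (SE 0.08, adjusted p = 0.000563, limma) in cut discs and -0.10 (SE 0.08, adjusted p = 0.436) in intact discs. It was the only 1 of the 6 genes called lower in C0→C24 whose arrays did not overlap between cut and intact discs. With LysRS, which was not called, that made 2 of the 29 synthetase genes (6.9%) with all cut arrays below all intact ones, against 2.56% of all genes, and 0 with all above, against 2.53%.

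For 5 of the 6 called genes the smallest fall in C0→C24 was on the array of replicate 2 in dye order B. Without that array, an alternative chosen after seeing the data, 6 synthetase genes were still called lower, ValRS reached -1.22 and SerRS -1.0, and GluProRS was called higher at 0.61. A dye effect fitted over all 12 arrays lay between -0.22 in GluProRS and 0.40 in SerRS, with a median size of 0.10 over the 29 genes and 0.11 over all genes.

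Among the other cytosolic genes, ArgRS and AsnRS fell by less than 1.5-fold with an adjusted p under 0.05 in both cut and intact discs. ArgRS, the arginyl enzyme, gave -0.52, -0.74, -0.46 and -0.25 in C0→C24, against -0.66, -0.74, -0.44 and -0.49 in NC0→NC24. Its change was -0.49 (SE 0.10, adjusted p = 0.00713, limma) in cut discs and -0.58 (SE 0.10, adjusted p = 0.00374) in intact discs, just short of the fold threshold. It was called in intact discs with each array centred on its median and, at -0.70, without NC0→NC24 replicate 2, and in cut discs, at -0.63, without C0→C24 replicate 2. AsnRS, which charges asparagine tRNA, changed by -0.40 (SE 0.09, adjusted p = 0.0107) in cut discs and -0.47 (SE 0.09, adjusted p = 0.00634) in intact discs.

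GluProRS moved the other way. The fused enzyme gave 0.48, 0.44, 0.76 and 0.42 in C0→C24, against 0.71, 0.37, 0.71 and 0.32 in NC0→NC24, so every array was above 0. The rise was 0.52 (SE 0.08, adjusted p = 0.00143, limma) in cut discs and 0.53 (SE 0.08, adjusted p = 0.00179) in intact discs, under 1.5-fold in both. Without C0→C24 replicate 1 it was called in cut discs, at 0.59. LysRS, the lysyl enzyme, gave 0.07, 0.24, 0.23 and 0.18 in cut discs, against 0.34, 0.35, 0.31 and 0.32 in intact discs, and its change of 0.33 passed the adjusted p in intact discs alone (0.0166 in limma, while cut discs had 0.143). The difference of LysRS between cut and intact discs, -0.15 (95% interval -0.41 to 0.11), was not called.

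The remaining cytosolic genes, TrpRS, GlnRS, IleRS, ThrRS, TyrRS and HisRS, had changes between -0.25 (TrpRS) and 0.08 (HisRS) in C0→C24 and between -0.22 (TrpRS) and 0.28 (TyrRS) in NC0→NC24, none with an adjusted p under 0.05. IleRS, ThrRS and TrpRS each stood on 2 probes. The 2 probes of IleRS, which charges isoleucine tRNA, gave means of 0.10 and -0.32 in C0→C24 and so disagreed in sign. The first read -0.26, -0.04, 0.73 and -0.04 on the 4 arrays, so its positive mean rested on the array at 0.73. Across the 16 cytosolic genes, 9 were below 0 on all 4 arrays of C0→C24 and 2 above 0 on all 4, against 10 and 4 in NC0→NC24.

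The 13 mitochondrial genes moved little. Over them the 2 replicate means of C0→C24 correlated with r = 0.499, against 0.968 over the 16 cytosolic genes, and the ratios give no level of these genes. In C0→C24 they ranged from -0.30 in AspRS-m (-0.14, -0.55, -0.32 and -0.17 on the 4 arrays) to 0.15 in ValRS-m. In NC0→NC24 the range was -0.22 in AspRS-m to 0.28 in ValRS-m and in TrpRS-m. The smallest adjusted p among them was 0.0713 in C0→C24 and 0.0574 in NC0→NC24 (limma), and 1 and 2 of the 13 genes had an unadjusted p under 0.05. AspRS-m and PheRS-m were below 0 on all 4 arrays of C0→C24, and no mitochondrial gene was above 0 on all of them.

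**Figure D2:**
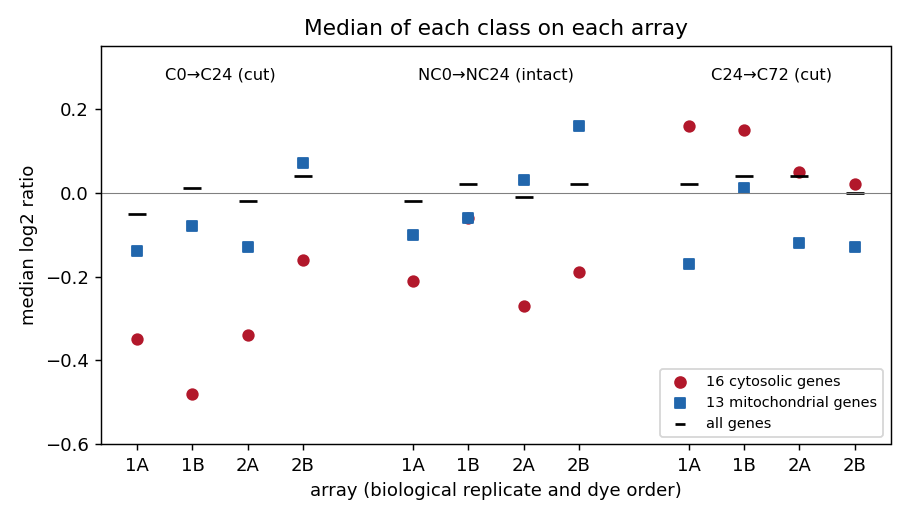
Median log2 ratio (later over earlier time, y axis) of 16 cytosolic genes, 13 mitochondrial genes and all genes on each of the 12 arrays (x axis, biological replicate and dye order). The cytosolic median is below the mitochondrial one on all 4 arrays of C0→C24 and above it on all 4 of C24→C72.

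Array by array, the cytosolic median minus the mitochondrial median was -0.21, -0.40, -0.21 and -0.23 in C0→C24, and -0.11, 0.00, -0.30 and -0.35 in NC0→NC24. The gap was therefore below 0 on every array of C0→C24 and at or below 0 on every array of NC0→NC24. In C24→C72 it was 0.32, 0.14, 0.17 and 0.15, and the medians of the fitted changes were 0.11 over the cytosolic genes and -0.06 over the mitochondrial ones, against 0.02 over all genes. The cytosolic genes also spread more widely, with an SD over genes of 0.45 in C0→C24 and 0.40 in NC0→NC24, against 0.13 and 0.16 for the mitochondrial genes.

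For 8 amino acids (arginine, asparagine, cysteine, isoleucine, leucine, tryptophan, tyrosine and valine) both enzymes were measured, and the cytosolic gene was set against its mitochondrial counterpart. The cytosolic gene had the lower ratio in 6 of the 8 pairs in C0→C24, and in the same 6 pairs in NC0→NC24, on all 4 arrays in each case. Isoleucine and tyrosine were the exceptions. For tryptophan this held for the mean of the 2 probes of TrpRS, which gave -0.37 and -0.06 in NC0→NC24. The second probe alone stood at 0.05 on replicate 1 in dye order B, against 0.00 for TrpRS-m. The gap was widest for valine, where ValRS was at -1.0 and ValRS-m at 0.15 in cut discs. The arrays of ValRS-m were -0.02, 0.22, 0.13 and 0.26 in C0→C24, and 0.08, 0.22, 0.43 and 0.39 in NC0→NC24. The valine gap was -1.17 and -1.12 in the 2 replicates of cut discs and -0.94 and -1.04 in those of intact discs.

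For cysteine, CysRS stood at -0.90 and CysRS-m at -0.12 in cut discs, with CysRS-m at -0.18, -0.16, -0.13 and 0.01 on the 4 arrays, against -0.08, 0.00, 0.04 and 0.25 in intact discs. For leucine, LeuRS stood at -0.78 and LeuRS-m at -0.04 in cut discs, with LeuRS-m at 0.05, -0.07, -0.21 and 0.07, against -0.28, -0.06, 0.07 and 0.07 in intact discs. Both mitochondrial genes had arrays on either side of 0, or at 0, in C0→C24 and in NC0→NC24. The gap in cut discs was -0.83 and -0.73 for cysteine and -0.89 and -0.59 for leucine in replicates 1 and 2. For arginine the gap was -0.33 in cut discs and -0.75 in intact discs. The arrays of ArgRS-m were -0.33, -0.22, -0.33 and 0.22 in C0→C24, against 0.17, 0.19, 0.12 and 0.19 in NC0→NC24. GluProRS has its mitochondrial counterparts in GluRS-m, at 0.02 in cut discs and -0.01 in intact discs, and ProRS-m, at -0.08 in cut discs and -0.14 in intact discs. SerRS and AlaRS could not be paired, since SerRS-m and AlaRS-m were not measured.

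**Figure D3:**
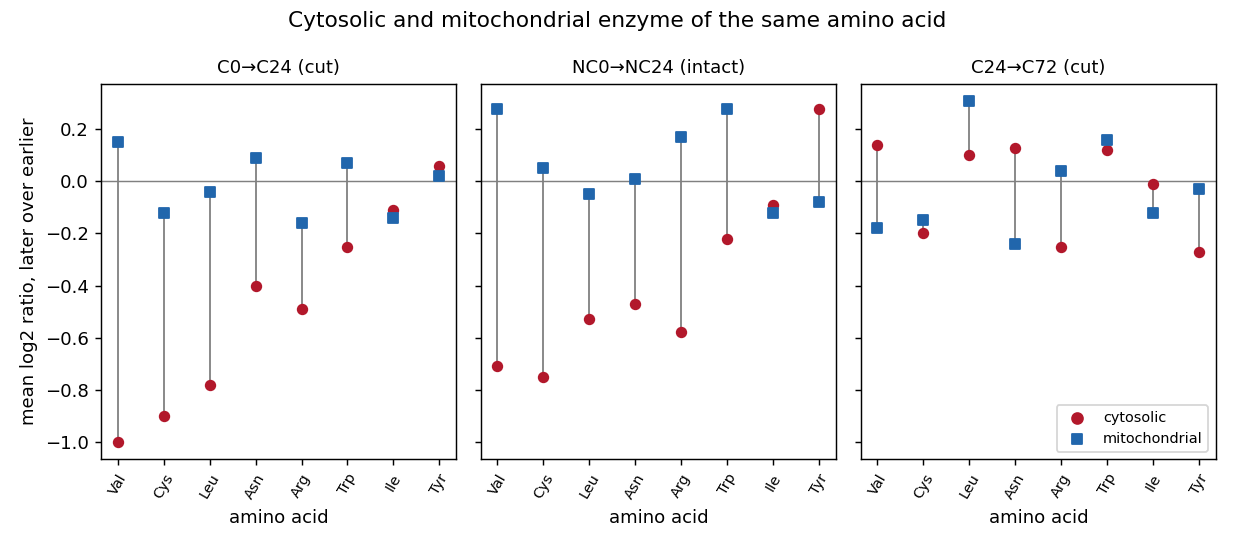
Mean log2 ratio (later over earlier time, y axis) of the cytosolic gene (circle) and the mitochondrial gene (square) of the 8 amino acids (x axis) for which both were measured, with a line joining each pair. In C0→C24 and NC0→NC24 the cytosolic gene is lower for valine, cysteine, leucine, asparagine, arginine and tryptophan, while in C24→C72 the pairs lie within -0.29 to 0.37 of each other.

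Whether the change over 24 hours differed between cut and intact discs was tested as a contrast of both changes. No synthetase gene was called, and 0.0746% of all genes were called in either direction. The smallest adjusted p was 0.218 (limma), in AlaRS, with a difference of -0.50 (95% interval -0.75 to -0.25). SerRS followed at -0.37 (-0.62 to -0.12, adjusted p = 0.459). An unadjusted p under 0.05 was found for 3 of the 29 genes, against 5.94% of all genes. Beside AlaRS and SerRS these included a mitochondrial gene, ArgRS-m, at -0.33.

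By sign alone, 13 of the 16 cytosolic genes and 8 of the 13 mitochondrial genes had a lower ratio in cut than in intact discs, against 52.7% of all genes. Both replicate means of cut discs lay below both of intact discs for 10 of the 29 genes, against 19.9% of all genes, and above them for 0, against 16.9% of all genes. The median difference was -0.15 over the cytosolic genes and -0.02 over the mitochondrial ones, against -0.01 over all genes. The cytosolic minus the mitochondrial median of this difference was -0.13, and it turned to 0.04 without NC0→NC24 replicate 1. The 95% intervals reached 0.25 to 0.38 to either side of the difference. ArgRS and GluProRS differed by 0.09 (-0.24 to 0.42) and 0.00 (-0.26 to 0.26) between cut and intact discs. Over the 16 cytosolic genes the change in cut discs correlated with that in intact discs with r = 0.931 (Spearman's rho 0.924), and over all genes with r = 0.9. Over the 13 mitochondrial genes r was 0.561 (Spearman's rho 0.44). These are correlations over genes, which are not independent, and C0→C24 and NC0→NC24 have no array in common.

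**Figure D4:**
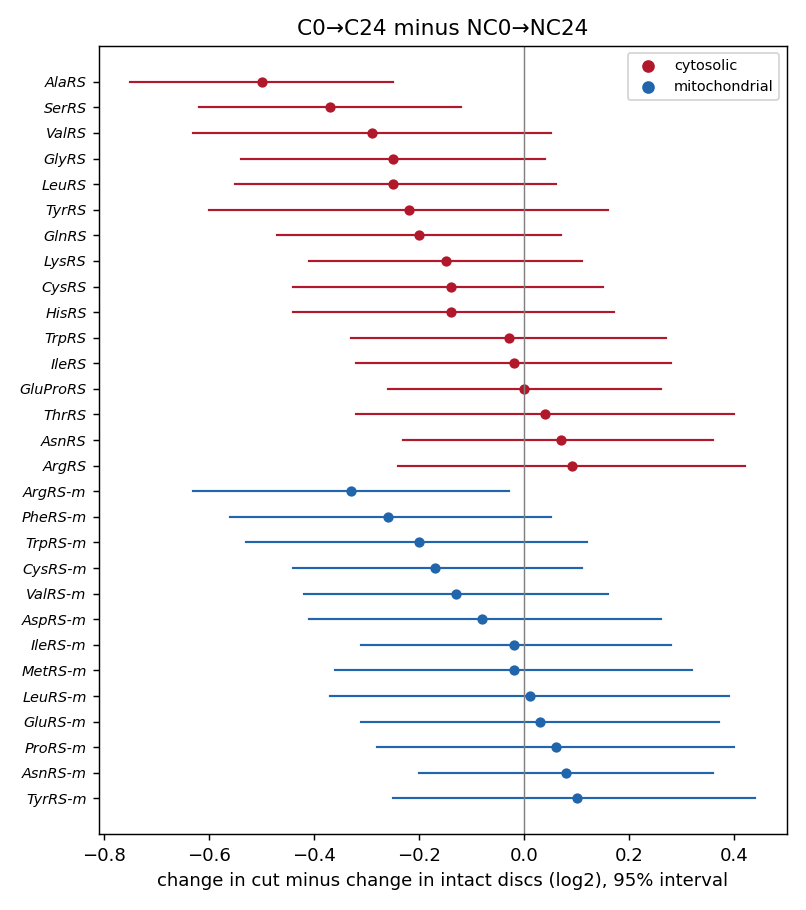
Change in C0→C24 minus change in NC0→NC24 (log2, x axis) for each of the 29 synthetase genes (y axis). Points are the fitted differences and lines their 95% intervals before adjustment. The intervals of AlaRS, SerRS and ArgRS-m lie below 0 throughout, and no gene passed the adjusted threshold.

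From 24 to 72 hours, no synthetase gene was called in C24→C72, where 1.36% of all genes were called higher and 1.58% lower. An unadjusted p under 0.05 was found for 7 of the 29 genes, against 25.7% of all genes. GlnRS, which charges glutamine tRNA, was the only synthetase gene with an adjusted p under 0.05 (0.0394, limma), a limit that 9.09% of all genes met. Its change was 0.34 (SE 0.08), and its arrays were 0.57, 0.21, 0.39 and 0.20. The adjusted p of GlnRS was 0.05 or more in 12 of 18 refits of the model, among them the replicate block (0.0654), each comparison fitted alone (0.202) and every fit that left out a replicate, with a range of 0.00366 to 0.202. HisRS, the histidyl enzyme, had the same mean of 0.34 and closer arrays of 0.38, 0.35, 0.26 and 0.38, with an adjusted p of 0.058. LysRS and GluProRS were also above 0 on all 4 arrays, with means of 0.23 and 0.15.

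The 6 genes that had fallen in C0→C24 had late changes between -0.20 (CysRS) and 0.14 (ValRS), none with an adjusted p under 0.05. The late arrays of ValRS were 0.23, 0.42, -0.11 and 0.00, and those of LeuRS 0.15, 0.25, -0.10 and 0.09. SerRS gave 0.16, -0.22, 0.29 and -0.29, GlyRS -0.23, 0.16, -0.22 and -0.08, and AlaRS 0.24, -0.08, 0.14 and -0.01. These 5 genes lay on both sides of 0 within the comparison. CysRS was below 0 on all 4 late arrays, at -0.07, -0.20, -0.38 and -0.13, as was ArgRS, at -0.20, -0.13, -0.36 and -0.32. Among the mitochondrial genes the late range was -0.24 in AsnRS-m to 0.31 in LeuRS-m. LeuRS-m had 1 array at 1.06, beside 0.01, -0.14 and 0.31 on the others.

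Over both periods together, from 0 to 72 hours in cut discs, 6 synthetase genes were lower by at least 1.5-fold and 1 was higher, all of them cytosolic. By adjusted p alone 10 changed (34.5%), against 25.3% of all genes. They were 9 cytosolic genes (56.2% of that class) and 1 mitochondrial gene (7.69%). The share called lower was 20.7% of the 29 genes, against 7.4% of all genes, while 9.43% of all genes were called higher. CysRS ended lowest, at -1.09 (SE 0.13, adjusted p = 0.000452, limma). ValRS, SerRS, GlyRS, ArgRS and LeuRS followed at -0.86, -0.85, -0.84, -0.74 and -0.68, with adjusted p values of 0.00333, 0.000722, 0.00166, 0.00581 and 0.00578. Of the 6 genes called lower in C0→C24, 5 were thus also called over the whole course. The whole-course change includes the C0→C24 change by which these genes were called, so the overlap is no separate evidence. AlaRS ended at -0.53 (adjusted p = 0.00779), under the fold threshold. At a 2-fold threshold CysRS alone was called over the whole course. Markers of other tissues moved over the same 72 hours: 9 of 12 hemocyte markers were called higher (median 0.95), 2 of 8 fat body markers higher (median 0.89), 2 of 7 muscle markers and 1 of 3 ovary markers higher, and 4 of 10 wing disc markers lower (median -0.45). Their part in the net change of the synthetase genes was not tested.

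GluProRS was the gene that ended higher, at 0.67 (SE 0.11, adjusted p = 0.0029, limma), and LysRS reached 0.41 (adjusted p = 0.0266). AspRS-m, at -0.47 (adjusted p = 0.0479), was the only mitochondrial gene with an adjusted p under 0.05, also under 1.5-fold. In 7 of 16 refits its adjusted p was 0.05 or more, with a range of 0.0154 to 0.22, and it was 0.0542 with the replicate block reversed in C24→C72. Without C0→C24 replicate 1, ArgRS and LeuRS were not called over the whole course (-0.61 and -0.56), which left 5 calls, and without C24→C72 replicate 2 LeuRS was not called (-0.58).

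**Figure D5:**
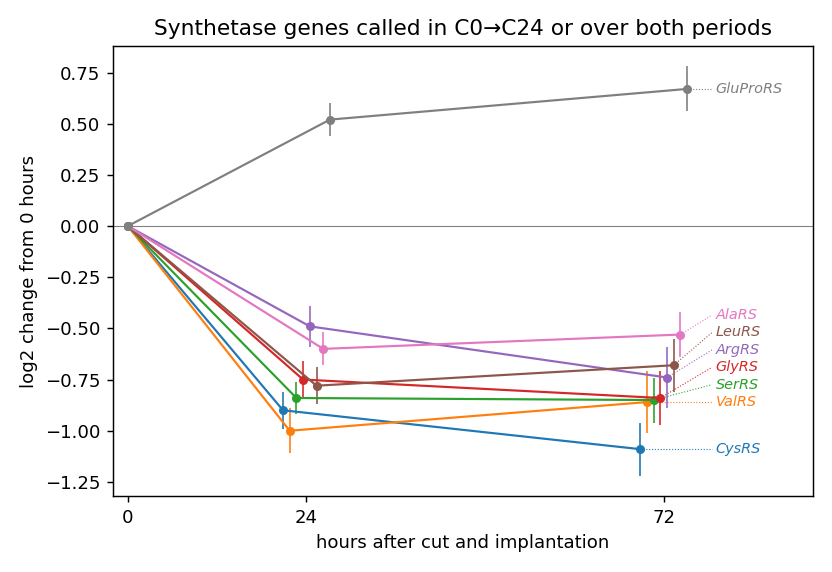
Fitted log2 change from 0 hours (y axis) at 24 and 72 hours after cut and implantation (x axis) for the 8 synthetase genes called in C0→C24 or over both periods. Error bars are standard errors of the fit, and points are shifted sideways so that they do not cover each other. GluProRS ends at 0.67, and the other genes end between -1.09 (CysRS) and -0.53 (AlaRS).

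The cytosolic genes were also grouped by features of their enzymes, after their values had been seen. Synthetases fall into 2 classes with unrelated catalytic folds. Class I held 8 of the measured cytosolic genes, of which 3 were called lower in C0→C24 (median -0.37), and class II held 7, of which 3 were called lower (median -0.40). In NC0→NC24 the medians were -0.37 in class I, with 2 called lower, and -0.10 in class II, with 0 called lower. Over all genes, 4.94% were called lower in C0→C24 and 3.85% in NC0→NC24. In mammals several cytosolic synthetases sit in a multi-synthetase complex. Of the 6 measured genes whose mammalian counterparts belong to it, 1 was called lower in C0→C24 (LeuRS, median of the 6 -0.15), against 5 of the 10 others (median -0.50).

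The phenylalanyl enzyme of the cytosol consists of 2 kinds of subunit whose symbols fall outside the naming rule. Both fell in C0→C24. alpha-PheRS gave -0.83, -0.99, -0.97 and -0.55 in cut discs, against -0.56, -0.29, -0.58 and -0.21 in intact discs, with changes of -0.84 (adjusted p = 0.000333, limma) and -0.41 (adjusted p = 0.016). beta-PheRS changed by -0.80 (adjusted p = 0.000177) in cut discs and by -0.70 (adjusted p = 0.000556) in intact discs. They were the 2 called of 8 measured synthetase subunits and partners in C0→C24, none of which was called higher. The shares over all genes were 4.94% lower and 6.12% higher. AIMP2, a scaffold protein of the multi-synthetase complex, changed by -0.56 in cut discs and -0.50 in intact discs, with adjusted p values of 0.00483 and 0.0101, under 1.5-fold in both.

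Of 22 names listed for the amino acid stress response, 13 had a value here. Thor, which the study reports as upregulated throughout, was not among them. Of the 13 measured genes, 5 rose and 1 fell in C0→C24, and likewise 5 and 1 in NC0→NC24. Over all genes, 6.12% were called higher and 4.94% lower in C0→C24, and 5.14% and 3.85% in NC0→NC24. crc encodes the fly ATF4, a transcription factor whose mammalian counterpart acts on several synthetase genes, and it rose by 0.87 (adjusted p = 0.000231, limma) in cut discs and 0.68 (adjusted p = 0.00114) in intact discs. crc rose again by 0.70 in C24→C72 (adjusted p = 0.00438). Irbp18, a bZIP partner of that family, rose by 1.12 in cut discs and 1.09 in intact discs. Nmdmc, a mitochondrial folate enzyme, fell to -1.14 in cut discs, against -1.11 in intact discs. Gadd45, a growth arrest gene induced by stress, rose by 2.02 in cut discs and 1.08 in intact discs, and it fell in C24→C72, at -1.25. The study describes both crc and Gadd45 as targets of the JNK pathway. Which signal raised them was not tested. Gcn2, the kinase that senses uncharged tRNA, was picked out after its values were seen. It stood at 0.44 (adjusted p = 0.0193, limma) in cut discs and 0.26 (adjusted p = 0.145) in intact discs, not called in either, and was called higher over both periods, at 0.61 (adjusted p = 0.0217).

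Of 10 amino acid transporter genes, 1 rose and 3 fell in both C0→C24 and NC0→NC24. The shares of all genes called higher and lower were 6.12% and 4.94% in C0→C24, and 5.14% and 3.85% in NC0→NC24. mnd, an amino acid transporter, fell to -1.80 (adjusted p = 1.08e-05, limma) in cut discs, against -1.44 (adjusted p = 4.97e-05) in intact discs. CD98hc, the heavy chain that pairs with such transporters, stood at -1.09 in cut discs and -0.89 in intact discs. path, a further transporter, stood at -0.82 in cut discs and -0.63 in intact discs. Sfxn1-3, a mitochondrial serine carrier by its mammalian counterparts, rose by 1.29 in cut discs and 1.16 in intact discs.

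Of 21 genes of tRNA processing and modification, 1 rose and 4 fell in C0→C24, against 1 and 3 in NC0→NC24. For this list and the elongation factors, the shares over all genes were 6.12% higher and 4.94% lower in C0→C24. In NC0→NC24 they were 5.14% and 3.85%. Nsun2, a tRNA methyltransferase, fell in both, at -0.81 in cut discs and -0.73 in intact discs, as did Pus1, a pseudouridine synthase, at -0.67 in cut discs and -0.70 in intact discs. Tgt, which exchanges guanine for queuine in tRNA, rose by 0.68 (adjusted p = 0.00043, limma) in cut discs, against 0.54 in intact discs, where it was not called. Elp4, a subunit of the Elongator complex, fell to -0.66 in cut discs, against -0.48, not called, in intact discs. Over both periods Tgt was called higher, at 1.08, and Elp4 lower, at -1.08. Of 9 elongation factor genes measured, from 17 names listed, 1 rose and 2 fell in C0→C24, against 0 and 2 in NC0→NC24. eEF1delta, a subunit of the factor that recharges eEF1A with GTP, fell to -1.32 in cut discs, against -1.41 in intact discs. The mitochondrial factor mEFTu1 fell to -0.58, just past the fold threshold, in cut discs, against -0.60 in intact discs, and eEF1alpha2 rose by 0.90 in cut discs, against 0.49, not called, in intact discs. In C24→C72 none of the 21 tRNA genes or the 9 elongation factor genes was called, against 1.36% of all genes higher and 1.58% lower.

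Markers of other tissues moved with the same comparisons. Beside their counts stand the shares of all genes called, 6.12% higher and 4.94% lower in C0→C24, and 5.14% and 3.85% in NC0→NC24. Of 12 hemocyte markers, 7 rose in C0→C24 and 3 in NC0→NC24, with medians of 0.86 and 0.14, and of 8 fat body markers 4 rose in cut discs and 1 in intact discs, with medians of 0.55 and 0.20. Of 10 wing disc markers, 1 fell in cut discs and 0 in intact discs, with medians of -0.26 and -0.23. By the contrast of both changes, 2 hemocyte markers and 1 fat body marker were called higher in cut discs, against 0.0746% of all genes called either way. From 24 to 72 hours in cut discs, 1 hemocyte marker rose and 1 fell, 2 fat body markers fell, and the ovary marker Vm34Ca rose, at 0.63 (adjusted p = 0.0142, limma). Among all genes, 1.36% were called higher in this period and 1.58% lower. The fat body list was split, from -2.20 in Lsp2 to 1.86 in Yp3, which was not called, with a median of -0.36. The other ovary markers, Cp38 and Vm26Aa, stood at -0.03 and 0.07. Of 7 muscle markers, 1 rose in cut discs, and 1 rose and 1 fell in intact discs, while none of 3 ovary markers was called in C0→C24 or NC0→NC24. Since the files hold ratios, no summed level and no marker at 0 can be given, and the labelled tissue cannot be checked by level. The part of these tissues in the changes of the synthetase genes was not tested.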

How the data were processed

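The deposited values are log2 ratios of 12 two-colour arrays. The authors scanned them with GenePix, normalized the 4 arrays of a comparison separately from the others (OLIN, method mad) and tested genes with limma. Per the labels, dye-swapped arrays of a replicate hold the same amplified RNA, so they were averaged first. Of 16416 probes, 13164 carry a single symbol, and probes of a gene were averaged into 12058 genes with no missing value. The 6 replicate means entered a single 3-group model in limma 3.58.1 (R 4.3.3), with 3 residual degrees of freedom and Benjamini-Hochberg adjustment over all genes. The 1.5-fold threshold follows the description of the series, while the study's methods name 2-fold, which was an alternative. P-values rest on the spread between 2 biological replicates, pooled over the 3 comparisons. limma moderated that spread with 5.64 prior degrees of freedom drawn from all genes. The steps were tested on simulated data. Members and lists were chosen with earlier results of these data known. All synthetase genes are accounted for, those called and their counterparts in full. Counts in the other lists and the marker sets cover only the names that had a value here. Up to 4 genes of each other list are named by smallest adjusted p in C0→C24, beside Gcn2 and the markers named in C24→C72. The alternatives, 20 in all, cover thresholds, replicate unit, blocks, centring, scaling, probes, moderation and omitted replicates.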

Additional observations from a re-analysis of the deposited data

Results flagged for a closer look

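In 5 of 87 groups of 4 arrays, 1 array stood apart from the other 3 by Dixon's test, where chance alone gives about 1 in 20. In NC0→NC24 these were the lowest array of IleRS, at -0.18, and the highest of AsnRS-m, at 0.11. In C24→C72 they were the highest of LysRS, at 0.38, the highest of ProRS-m, at 0.37, and the lowest of CysRS-m, at -0.21. None of these genes was called in the comparison concerned.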

How the results depend on the processing

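No synthetase gene with an adjusted p under 0.05 changed sign under any of the 20 alternatives run. Many of these could not change it, since thresholds, moderation, replicate unit, dye term and balanced blocks leave the estimate as it was. No value was missing, so leaving out genes with a missing value repeated the main fit. The sign could move only with centring, scaling, probes or omitted arrays. At a 2-fold threshold 1 synthetase gene was called in C0→C24, 0 in NC0→NC24 and 1 over both periods, against 6, 2 and 7 at 1.5-fold. With no fold threshold 9 were called in NC0→NC24 and 1 in C24→C72. Leaving out each replicate in turn gave 6 to 7 calls in C0→C24, 1 to 3 in NC0→NC24, 0 in C24→C72 and 5 to 7 over both periods. ValRS was the call lost in NC0→NC24, without its replicate 1. In those fits a group of 1 replicate is assumed to vary like the others.

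The cytosolic minus the mitochondrial median ranged from -0.37 to -0.22 in C0→C24 and from -0.26 to -0.06 over both periods when replicates were left out, and for the contrast of cut with intact discs from -0.28 to 0.04, above 0 without NC0→NC24 replicate 1. A replicate block changed no call, with 6, 2, 0 and 7 synthetase genes called in C0→C24, NC0→NC24, C24→C72 and over both periods, though by adjusted p alone GlnRS in C24→C72 missed the threshold with it. The numbers do not pair the samples by label, and the replicate deviations of C0→C24 and NC0→NC24 correlated with r = -0.12, so the crossed numbers were run too, chosen after seeing the data, with counts of 6 and 2. Comparisons fitted alone give no difference or sum. For single genes, 523 values kept their side of the threshold, 20 moved past it and 17 fell below it. Most of these moves came from changing the fold threshold itself, which left the estimates as they were. The 523 include those of the fit without missing values, which repeated the main fit and could not move. Array number, with 2 replicates a comparison, limits the precision.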
